A study of Mus musculus with 2 samples.

Results

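Inhibitory receptors and the ectonucleotidases that make extracellular adenosine were followed as a set of 9 genes in lung γδ T cells: the receptor genes Pdcd1, Ctla4, Lag3, Tigit, Havcr2, Btla and Cd72, and the enzyme genes Entpd1 and Nt5e. The 9 were taken by symbol from the 32285 genes of the single-cell count tables. Each symbol matched 1 row.

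The 2 libraries came from flow-sorted lung γδ T cells of uninfected mice aged 5 to 7 weeks. The library called WT here held Vγ1- cells of C57BL/6NCrl mice. The library labelled KO held Vγ1+ cells of the strain B6.Cg-Tcrgtm1lku(B6.Vg4-/-Vg6-/-), named for deletions of Vγ4 and Vγ6. The sorted population, the genotype, the strain and the library differed together between WT and KO and cannot be told apart, and the number and sex of the mice in each library are not given in the labels.

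Each group had 1 library, so no test between libraries could be made. Intervals are 95% intervals of counting error only: exact Poisson for levels, exact Clopper-Pearson for shares and exact conditional for ratios. PCR copies were collapsed by unique molecular identifiers (UMIs), but neither animal-to-animal nor library-to-library spread is in these intervals. Those of levels and ratios also leave out cell-to-cell spread, since UMIs of the same cell were counted as independent. They are thus narrower than with that spread, above all where positive cells held several UMIs. For Pdcd1 this was 5.13 UMIs a positive cell in WT cells with Tcrg-V6 UMIs alone.

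Inhibitory receptors lower T cell activation when they meet their ligands, mostly by bringing phosphatases to the T cell receptor or by taking ligands away from activating receptors. The ectonucleotidases CD39 and CD73 work in series on the outer cell surface: CD39 breaks ATP and ADP down to AMP, and CD73 turns AMP into adenosine, which dampens T cells through adenosine receptors. PD-1, the product of Pdcd1, has been described on IL-17-producing γδ T cells of barrier tissues.

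Cells were grouped by their T cell receptor transcripts. Of 2505 WT cells that passed the filter, 520 had UMIs of Tcrg-V6 and of no other Tcrg-V gene (WT Vγ6 cells), and 410 had UMIs of Tcrg-V4 alone (WT Vγ4 cells). Of 6634 KO cells, 2880 had a Tcrg-V1 UMI (KO Vγ1 cells), and 1499 had a UMI of a Trav15 gene of the dv6 family (KO dv6 cells), the δ chain family that pairs with Vγ1 in innate-like cells. The KO groups shared 797 cells, so the dv6 cells were compared with the 2083 KO Vγ1 cells that had no dv6 UMI. The remaining 62.9% of WT and 46.0% of KO cells were in no group.

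The libraries held 9173997 UMIs (WT) and 26436826 UMIs (KO), with medians of 3288 and 3521 UMIs a cell, and 23 barcodes occurred in both. Tcrg-V6 had 2906 UMIs in WT and 0 in KO cells, with an upper bound of 0.142 CPM in the KO library, where CPM are UMIs scaled to a common total. Tcrg-V4 still had UMIs in 14.9% of cells of the library labelled KO, against 21.4% of WT cells, so the label held for Tcrg-V6 transcripts and was not shown by Tcrg-V4 transcripts. Likewise, 7.82% of cells sorted as Vγ1- had a Tcrg-V1 UMI. All 7 T cell marker genes were detected in each group. By clusters built without the 9 genes, 92 WT and 59 KO cells were B-like or myeloid-like, of which each group held between 1 and 10 cells. These B-like and myeloid-like cells gave the background: a Pdcd1 UMI was in 10.4% of them in WT and 22.7% in KO at 2000 UMIs a cell, and a Tigit UMI in 4.48% and 6.82%, at medians of 3446 and 3838 UMIs a cell before thinning. They also carried T cell RNA: a CD3 or Trdc UMI was in 30.4% of them in WT and 45.8% in KO. The 7 T cell genes summed to 1369 and 1973 CPM there, against 3430 CPM in WT Vγ4 cells. Whether T cells among them gave this was not tested, so the background may be set too high.

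In GRCm38, the mm10 build of the files, 8 of the 9 genes matched an entry in the RefSeq promoter table (GRCm38.p6). Pdcd1 spans chr1:94038305-94052553 on the minus strand and Tigit spans chr16:43648867-43664146, also on the minus strand. These were the genes that separated WT Vγ6 from WT Vγ4 cells most, in opposite directions, and the 250 bases before their RefSeq start sites are therefore shown, from chr1:94052554-94052803 and chr16:43664185-43664434, written 5′ to 3′ on the strand of the gene. Capitals mark matches to motifs searched on both strands.
Pdcd1: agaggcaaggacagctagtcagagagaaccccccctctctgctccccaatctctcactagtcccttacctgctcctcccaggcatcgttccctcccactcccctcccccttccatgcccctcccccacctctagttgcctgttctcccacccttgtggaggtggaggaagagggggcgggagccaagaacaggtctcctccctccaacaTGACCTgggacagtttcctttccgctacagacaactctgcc
Tigit: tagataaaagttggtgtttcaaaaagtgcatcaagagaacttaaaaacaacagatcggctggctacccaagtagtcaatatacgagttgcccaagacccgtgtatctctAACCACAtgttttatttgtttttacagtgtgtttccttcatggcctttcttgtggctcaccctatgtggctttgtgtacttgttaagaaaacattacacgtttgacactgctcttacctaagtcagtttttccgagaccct
Of 7 motifs searched, the Pdcd1 window held only the shared ROR and NR4A half-site AGGTCA, in reverse, and the Tigit window held only the RUNX motif TGTGGTT, in reverse. AGGTCA was in 14% and TGTGGTT in 4.40% of all 32851 windows of this length. The other motifs, with no match in either window, were TGANTCA (AP-1), AGGTGTGA (T-box), CTTTGAA (TCF), TGGAAA (NFAT) and TGCTGA (MAF). None of these motifs overlapped in the windows shown, and a match is a description of letters, not a binding site.

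Pdcd1 was highest in WT Vγ6 cells and lowest in WT Vγ4 cells. Its level was 1095 CPM (interval 1049 to 1142, 2168 UMIs) in WT Vγ6 cells, 277 CPM (251 to 304, 438 UMIs) in WT Vγ4 cells, 586 CPM (574 to 599, 7938 UMIs) in KO Vγ1 cells and 582 CPM (564 to 600, 4099 UMIs) in KO dv6 cells. The order was thus WT Vγ6, then both KO groups, which did not differ beyond counting error, then WT Vγ4. After each cell was thinned to 2000 UMIs, a Pdcd1 UMI was found in 73.5% of WT Vγ6 cells, 24.2% of WT Vγ4 cells, 47.5% of KO Vγ1 cells and 48.2% of KO dv6 cells. Unthinned, 81.3% of WT Vγ6 cells had one.

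Ctla4 (chr1:60887000-60915832, plus strand), whose product takes CD80 and CD86 away from the activating receptor CD28, had another order. It was at 42.9 CPM (34.3 to 53.1, 85 UMIs) in WT Vγ6, 29.7 CPM (21.8 to 39.5, 47 UMIs) in WT Vγ4, 68.0 CPM (63.7 to 72.6, 921 UMIs) in KO Vγ1 and 70.4 CPM (64.4 to 76.9, 496 UMIs) in KO dv6 cells. The WT intervals overlapped, the KO intervals overlapped, and both KO levels lay above both WT levels.

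Tigit, a receptor that competes with the activating receptor CD226 for CD155, was low in WT Vγ6 cells alone. It was at 34.8 CPM (27.1 to 44.1, 69 UMIs) in WT Vγ6 cells, 136 CPM (119 to 156, 216 UMIs) in WT Vγ4 cells, 143 CPM (136 to 149, 1931 UMIs) in KO Vγ1 cells and 142 CPM (133 to 151, 997 UMIs) in KO dv6 cells. The last 3 did not differ beyond counting error. At 2000 UMIs a cell, 6.00% of WT Vγ6 cells had a Tigit UMI, within the range of the B-like and myeloid-like cells, against 21.0% of WT Vγ4, 22.1% of KO Vγ1 and 22.1% of KO dv6 cells. The WT Vγ6 level cannot be told from background.

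Cd72, the gene of a receptor known mainly from B cells, was at 14.1 CPM (9.40 to 20.4, 28 UMIs) in WT Vγ6, 9.47 CPM (5.30 to 15.6, 15 UMIs) in WT Vγ4, 21.7 CPM (19.3 to 24.4, 294 UMIs) in KO Vγ1 and 20.2 CPM (17 to 23.8, 142 UMIs) in KO dv6 cells. Sorted by level, the interval of each group overlapped that of the next, while those of WT Vγ4 and KO Vγ1 cells did not overlap. The level was 115 CPM in WT and 107 CPM in KO B-like cells.

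Lag3, Havcr2 and Btla were near the detection limit. Lag3 (chr6:124904361-124911705, minus strand), a receptor for MHC class II, gave 1, 2, 36 and 17 UMIs in WT Vγ6, WT Vγ4, KO Vγ1 and KO dv6 cells, at most 2.66 CPM. Havcr2 (chr11:46454935-46481255, plus strand), the gene of TIM-3, gave 13, 4, 29 and 12 UMIs in the same order, with 6.57 CPM (3.5 to 11.2) in WT Vγ6 cells, where 9 cells carried its 13 UMIs. Btla (chr16:45224315-45257670, plus strand), whose product binds HVEM, gave 0, 8, 77 and 37 UMIs, so that WT Vγ6 cells were under 1.86 CPM while the other groups were between 5.05 and 5.69 CPM. In all 3 cases intervals overlapped between neighbours, except for Btla between WT Vγ4 and WT Vγ6 cells. Havcr2 was at 65.1 CPM in WT myeloid-like cells, and Btla was at 79.5 CPM in WT B-like cells.

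The enzyme genes differed from each other. Nt5e (chr9:88327197-88372092, plus strand), the gene of CD73, was at 20.7 CPM (14.9 to 28.1, 41 UMIs) in WT Vγ6, 43.0 CPM (33.4 to 54.5, 68 UMIs) in WT Vγ4, 79.4 CPM (74.7 to 84.3, 1075 UMIs) in KO Vγ1 and 74.7 CPM (68.5 to 81.4, 526 UMIs) in KO dv6 cells. WT Vγ6, WT Vγ4 and KO formed 3 steps without overlap, beside 9.51 CPM (2.59 to 24.3) in WT and 37.8 CPM (18.9 to 67.6) in KO B-like and myeloid-like cells. The WT Vγ6 level cannot be told from that background. Entpd1 (chr19:40612366-40741602, plus strand), the gene of CD39, overlaps Gm16027, Gm8783 and AC166063.1 on its own strand, and reads may be split among them. It had only 3, 7, 43 and 28 UMIs in that order, between 1.52 and 4.42 CPM, with overlapping intervals throughout. Its level in myeloid-like cells was 163 CPM in WT and 112 CPM in KO. These cells held 50 of the 76 Entpd1 UMIs of the WT library and 20 of the 101 UMIs of the KO library.

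**Figure D1:**
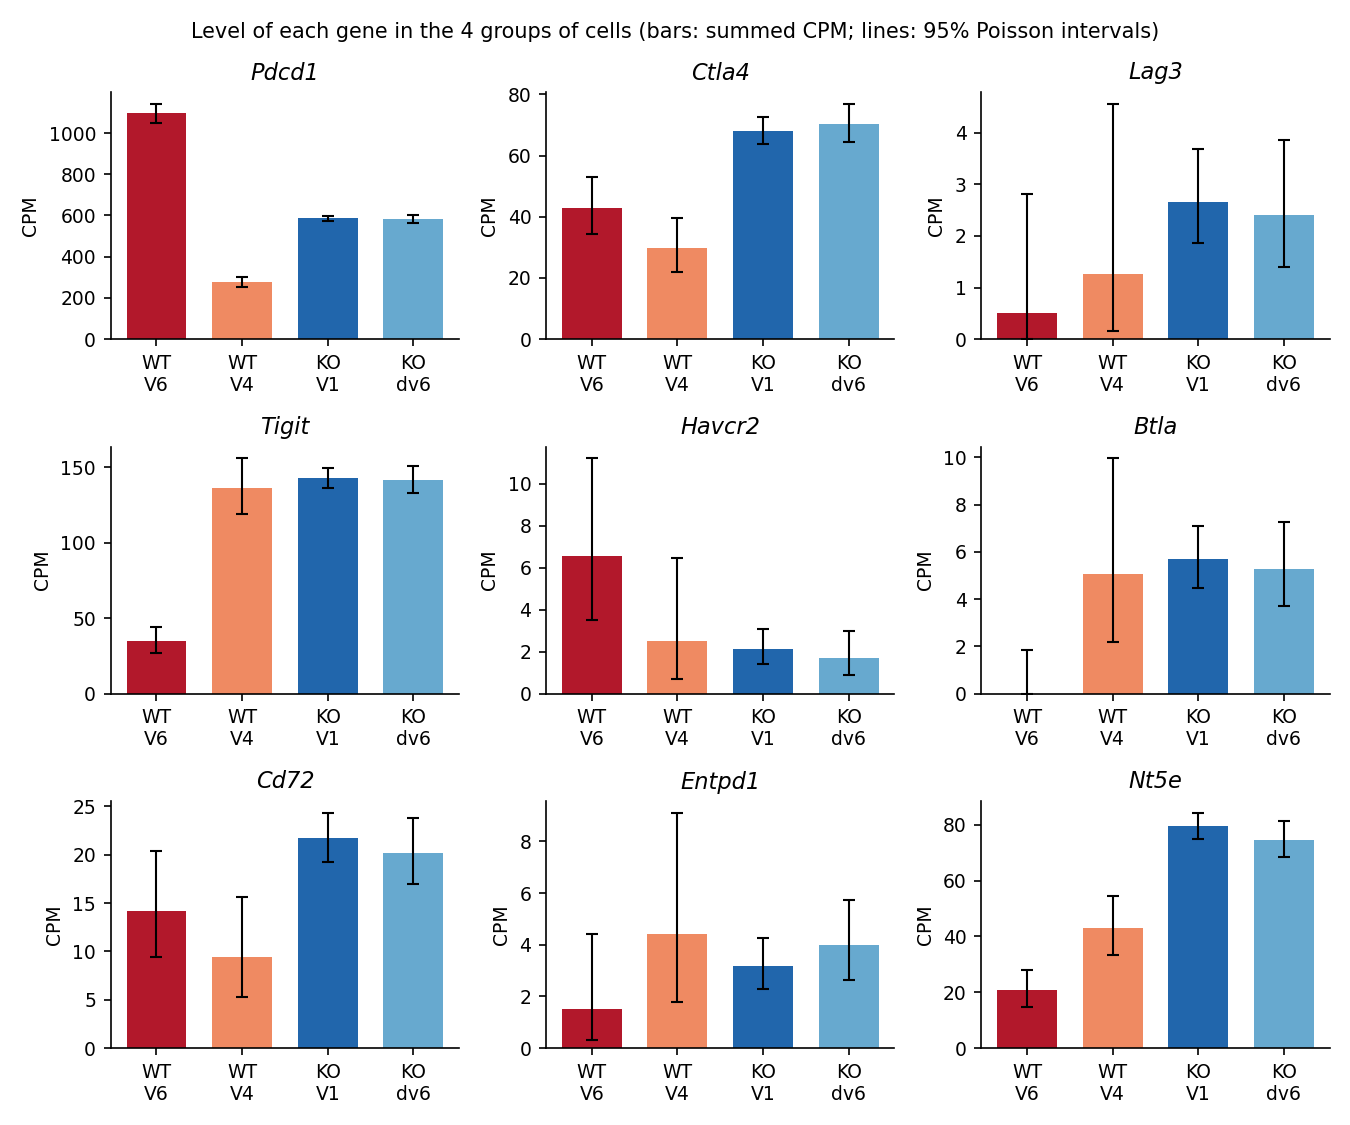
Level of each gene in WT Vγ6 (WT V6), WT Vγ4 (WT V4), KO Vγ1 (KO V1) and KO dv6 cells, in CPM of the summed UMIs of each group (y axis, scaled per gene from 0). Bars are sums over the cells of 1 library and lines are 95% Poisson intervals of counting error; Pdcd1 reaches 1095 CPM in WT Vγ6 cells, Tigit is at 34.8 CPM there, and the intervals of the KO groups, which share cells, overlap for every gene.

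As a set, the 9 genes gave 1216 CPM in WT Vγ6, 508 CPM in WT Vγ4, 912 CPM in KO Vγ1 and 902 CPM in KO dv6 cells. Pdcd1 made up 90.0% of these UMIs in WT Vγ6 cells, 54.4% in WT Vγ4, 64.3% in KO Vγ1 and 64.5% in KO dv6 cells, as shares of UMIs with no correction for transcript length. At 2000 UMIs a cell, UMIs of exactly 2 of the genes were found in 12.8% of WT Vγ6 cells, 10.1% of WT Vγ4 cells, 21.0% of KO Vγ1 cells and 20.5% of KO dv6 cells.

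WT Vγ6 and WT Vγ4 cells came from 1 library and are compared first. At a minimum of 30 UMIs over both groups, 5 of the 9 genes could be compared, and Lag3, Havcr2, Btla and Entpd1 could not. Pdcd1 was 3.96-fold higher in WT Vγ6 cells, a log2 ratio of 1.98 (1.84 to 2.14). Tigit was lower, with a log2 ratio of -1.97 (-2.38 to -1.57), and so was Nt5e, at -1.05 (-1.65 to -0.47). Ctla4 at 0.53 (0.00 to 1.08) and Cd72 at 0.58 (-0.38 to 1.59) were less than 2-fold apart. So 1 of 5 was past 2-fold higher and 2 of 5 lower, against 5.11% and 5.12% of all 8105 genes compared. The median log2 ratio of the 5 genes was 0.53, and that of all genes was -0.01. Nt5e ran from -2.01 to -0.76 over the settings tried: it was within 2-fold at -0.91 with thinned cells, and at -2.01 in cells with at least 2 receptor UMIs (15.4 against 61.7 CPM).

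KO Vγ1 cells, from the library labelled KO, were next compared with WT Vγ6 cells. All 9 genes passed the UMI minimum, with Lag3, Havcr2, Btla and Entpd1 passing mainly on UMIs of the larger KO group. Tigit was 4.09-fold higher in KO Vγ1 cells (log2 2.03, 1.69 to 2.40) and Nt5e 3.84-fold higher (log2 1.94, 1.49 to 2.43). Btla was 3.75-fold higher with the 0 UMIs of WT Vγ6 cells set to a floor of 3 UMIs over the group. This is a log2 ratio of 1.91, with an interval from 1.58 upward. Lag3 at 2.40 (-0.17 to 7.74) and Entpd1 at 1.07 (-0.58 to 3.40) were past 2-fold as values, but their intervals included no difference. Havcr2 was lower, at -1.62 (-2.60 to -0.55), and Pdcd1 was lower but within 2-fold, at -0.90 (-0.97 to -0.83). Ctla4 was at 0.66 (0.34 to 1.0) and Cd72 at 0.62 (0.06 to 1.23). The counts were 5 of 9 higher and 1 of 9 lower, beside 11.2% and 6.77% of 10726 genes. Lag3 (36 KO against 1 WT UMIs), Btla (77 against 0) and Entpd1 (43 against 3) were compared only because KO UMIs carried them past the minimum, so the count is not read against the background. With every cell thinned to 2000 UMIs, the Havcr2 difference turned to 0.66, with a UMI left in 1 of 483 WT Vγ6 cells.

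Against WT Vγ4 cells, KO Vγ1 cells of the library labelled KO had more Pdcd1, Ctla4 and Cd72. These were 2.12-fold (log2 1.08, 0.94 to 1.23), 2.29-fold (log2 1.20, 0.77 to 1.65) and 2.29-fold (log2 1.20, 0.45 to 2.05) higher. Lag3 was past 2-fold at 1.07, with an interval of -0.88 to 4.17. Nt5e stayed within 2-fold at 0.89 (0.53 to 1.26). Tigit was at 0.06 (-0.14 to 0.27), an interval that leaves less than 2-fold in either direction. Thus 4 of 9 genes were past 2-fold higher and 0 lower, beside 5.17% and 3.85% of 10701 genes. Lag3 was compared only through its KO UMIs (36 against 2), so the count is not read against the background. Of the WT Vγ4 cells, 311 had just 1 Tcrg-V4 UMI, and Pdcd1 was at 244 CPM in these and at 357 CPM in the 99 with at least 2. With at least 2 receptor UMIs in both groups (99 WT and 1334 KO cells), the log2 ratio was 0.85 for Pdcd1 (641 against 357 CPM), 0.76 for Ctla4 (67.3 against 39.6 CPM), 0.56 for Cd72 (22.8 against 15.4 CPM) and -0.51 for Tigit. Lag3, with 24 and 1 UMIs, then fell under the minimum, and 0 genes were past 2-fold. With the stricter rule in WT cells alone, a setting added after seeing the data, 0 genes were past 2-fold as well, with Pdcd1 at 0.72, Ctla4 at 0.78 and Cd72 at 0.49. The 3 comparisons above share groups of cells and are not independent of each other.

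Within the KO library, cells with a dv6 UMI did not stand apart from KO Vγ1 cells without one. Detection of dv6 was sparse: of the 1499 KO dv6 cells, 604 had just 1 dv6 UMI. The cells without a dv6 UMI may thus include dv6 cells whose transcript was missed, which would shrink the ratios. In KO dv6 against KO Vγ1 cells without dv6, the log2 ratio was 0.02 (-0.04 to 0.08) for Pdcd1, -0.02 (-0.14 to 0.10) for Tigit, 0.04 (-0.13 to 0.21) for Ctla4, -0.04 (-0.21 to 0.12) for Nt5e and -0.07 (-0.39 to 0.25) for Cd72. For these 5 genes the intervals left no room for a 2-fold difference in counting terms between the groups as defined by UMIs. How far missed dv6 transcripts lowered the ratios was not tested. The 4 sparse genes had values from -0.35 for Havcr2 to 0.39 for Entpd1. None of 9 genes was past 2-fold, against 0.464% higher and 0.315% lower among 10781 genes.

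**Figure D2:**
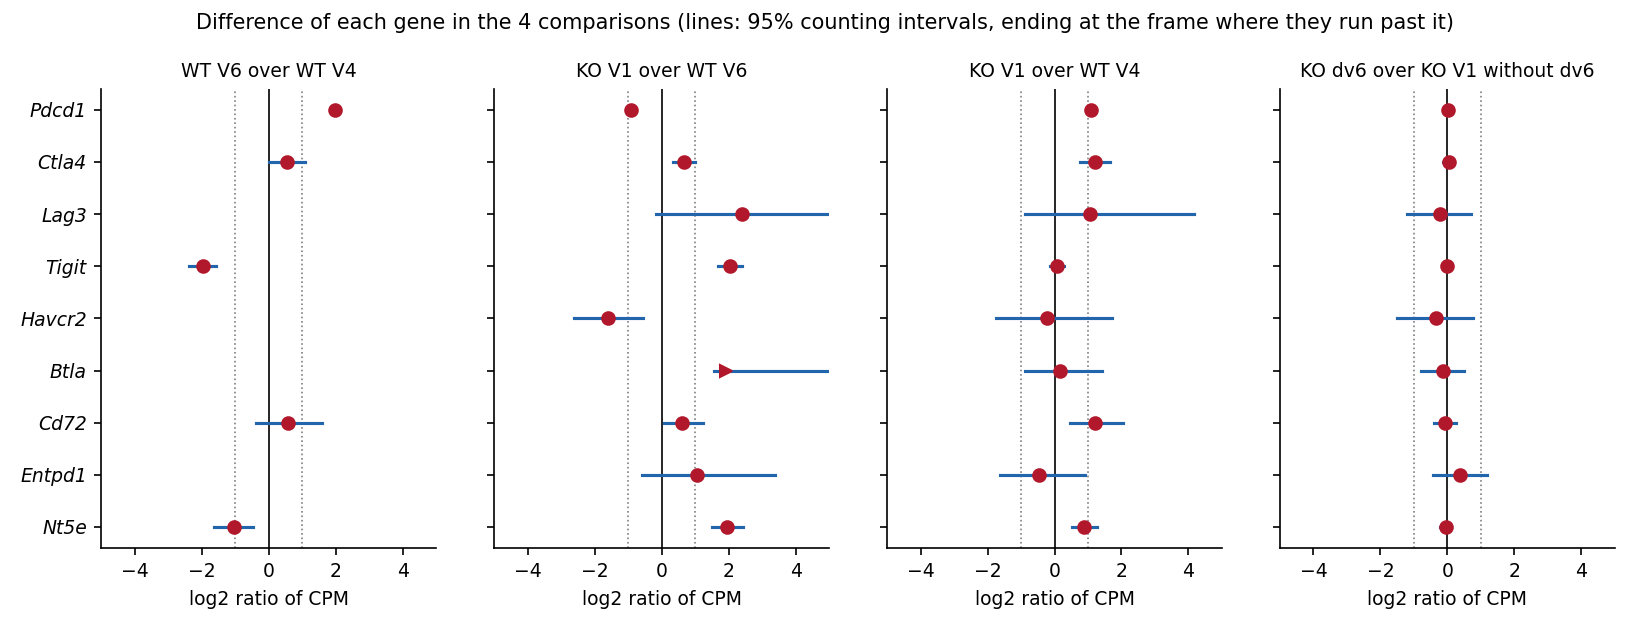
Log2 ratio of CPM (x axis) of each gene (y axis) in the 4 comparisons. Lines are 95% counting intervals, dotted lines are 2-fold differences, and a triangle marks a ratio with 0 UMIs set to the floor. Genes under 30 UMIs are left out; Pdcd1 and Tigit lie at 1.98 and -1.97 in WT Vγ6 over WT Vγ4 cells, and the values for dv6 run from -0.35 to 0.39.

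The groups differed in their mix of cell states, so the genes were read again within a state. By markers of IL-17-producing γδ T cells (γδ17), 95.8% of WT Vγ6, 54.4% of WT Vγ4, 29.5% of KO Vγ1 and 22.5% of KO dv6 cells fell in γδ17-like clusters. Of these γδ17-like cells, 78.1% of WT Vγ6 cells lay in cluster 5, led by Tns4, Clnk and Sema6a, whereas 95.5% of WT Vγ4 and 95.1% of KO Vγ1 cells lay in cluster 4, led by Ccr6, Pxdc1 and Il17f. The other T cells are the remaining ones outside B-like and myeloid-like clusters. Since levels are sums over cells, fewer expressing cells and less RNA in each cannot be told apart within a sum.

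Among γδ17-like cells Pdcd1 was at 1116 CPM (1069 to 1165) in WT Vγ6, 107 CPM (84.7 to 133) in WT Vγ4 and 426 CPM (406 to 446) in KO Vγ1 γδ17-like cells. WT Vγ4 γδ17-like cells were thus at the level of WT B-like and myeloid-like cells, 107 CPM. They cannot be told from that background, which may be set too high. The log2 ratio of WT Vγ6 over WT Vγ4 grew from 1.98 over all cells to 3.39 (3.06 to 3.73) within the state. Outside it, Pdcd1 was at 450 CPM in WT Vγ4 and 659 CPM in KO Vγ1 cells, above the γδ17-like cells of the same groups (log2 -2.08 and -0.63, γδ17-like over other). In WT Vγ6 cells the order was the other way, with 600.5 CPM (438 to 804, 45 UMIs in 21 cells) in other T cells, below the 1116 CPM of γδ17-like cells.

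Tigit was lower in γδ17-like than in other T cells of the same group in both libraries: 70.8 against 205 CPM in WT Vγ4 (log2 -1.54, -2.01 to -1.08) and 83.8 against 169 CPM in KO Vγ1 cells (log2 -1.02, -1.19 to -0.85). WT Vγ6 γδ17-like cells had 33.7 CPM, lower than WT Vγ4 cells of that state by a log2 ratio of -1.07 (-1.62 to -0.52). KO Vγ1 and WT Vγ4 γδ17-like cells did not differ beyond counting error, at 0.24 (-0.18 to 0.69).

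Ctla4 was at 42.6 CPM in WT Vγ6, 16.0 CPM in WT Vγ4 and 51.3 CPM in KO Vγ1 γδ17-like cells, and at 43.4 CPM and 76.0 CPM in the other T cells of WT Vγ4 and KO Vγ1. The 16.0 CPM of WT Vγ4 γδ17-like cells cannot be told from the 11.9 CPM (3.86 to 27.7) of WT B-like and myeloid-like cells. KO Vγ1 and WT Vγ6 γδ17-like cells were apart by 0.27 (-0.11 to 0.66), an interval that includes no difference.

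Cd72 and Nt5e behaved otherwise. In KO Vγ1 cells, Cd72 was at 40.9 CPM (35.0 to 47.6, 169 UMIs) in γδ17-like and 13.2 CPM (11 to 15.8, 123 UMIs) in other T cells, a log2 ratio of 1.63 (1.29 to 1.98). In WT Vγ4 cells it was the reverse, with 0 UMIs in 223 γδ17-like cells (under 4.93 CPM) and 15 UMIs, 19.7 CPM, in the other T cells. Nt5e was at 123 CPM (113 to 135) in KO Vγ1 γδ17-like cells, against 60.1 CPM in KO Vγ1 other T cells, 41.4 CPM in WT Vγ4 and 18.9 CPM in WT Vγ6 γδ17-like cells. Of these sets of cells, γδ17-like KO Vγ1 cells had the highest level of both genes. KO dv6 γδ17-like cells were close to them, with 41.8 CPM of Cd72 and 114 CPM of Nt5e. Against WT Vγ6 γδ17-like cells, KO Vγ1 γδ17-like cells had a log2 ratio of 2.71 (2.22 to 3.24) for Nt5e and 1.53 (0.93 to 2.17) for Cd72.

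B cell markers were given beside Cd72. The 7 B cell genes summed to 73.9 CPM in γδ17-like and 74.6 CPM in other KO Vγ1 cells, with 4 and 5 of them detected, and Ms4a1 and Pax5 were among those at 0 UMIs in the former. Cd72 (chr4:43446462-43454628, minus strand) overlaps Tesk1 on the other strand, and whether counting used the strand is not given in the sources used here. Tesk1 gave 7.51 CPM in γδ17-like and 2.68 CPM in other KO Vγ1 cells, below Cd72 in both.

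Lag3 and Havcr2, both sparse, differed by state in KO Vγ1 cells. Lag3 had 0 UMIs in 850 γδ17-like and 36 UMIs in 2020 other KO Vγ1 cells. With the 0 set to the floor the log2 ratio was -2.41, with an interval up to -2.04. Havcr2 had 25 UMIs in the former and 3 in the latter, a log2 ratio of 4.23 (2.52 to 6.60). The myeloid genes were at 212 CPM in γδ17-like and 130 CPM in other KO Vγ1 cells, with 6 and 8 of 10 detected, and Csf1r, S100a8, C1qa and C1qb were at 0 in the former. Their part in the Havcr2 result was not tested. Btla, at 6.30 and 5.37 CPM, and Entpd1, at 1.45 and 3.33 CPM, had intervals of the ratio that included no difference.

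**Figure D3:**
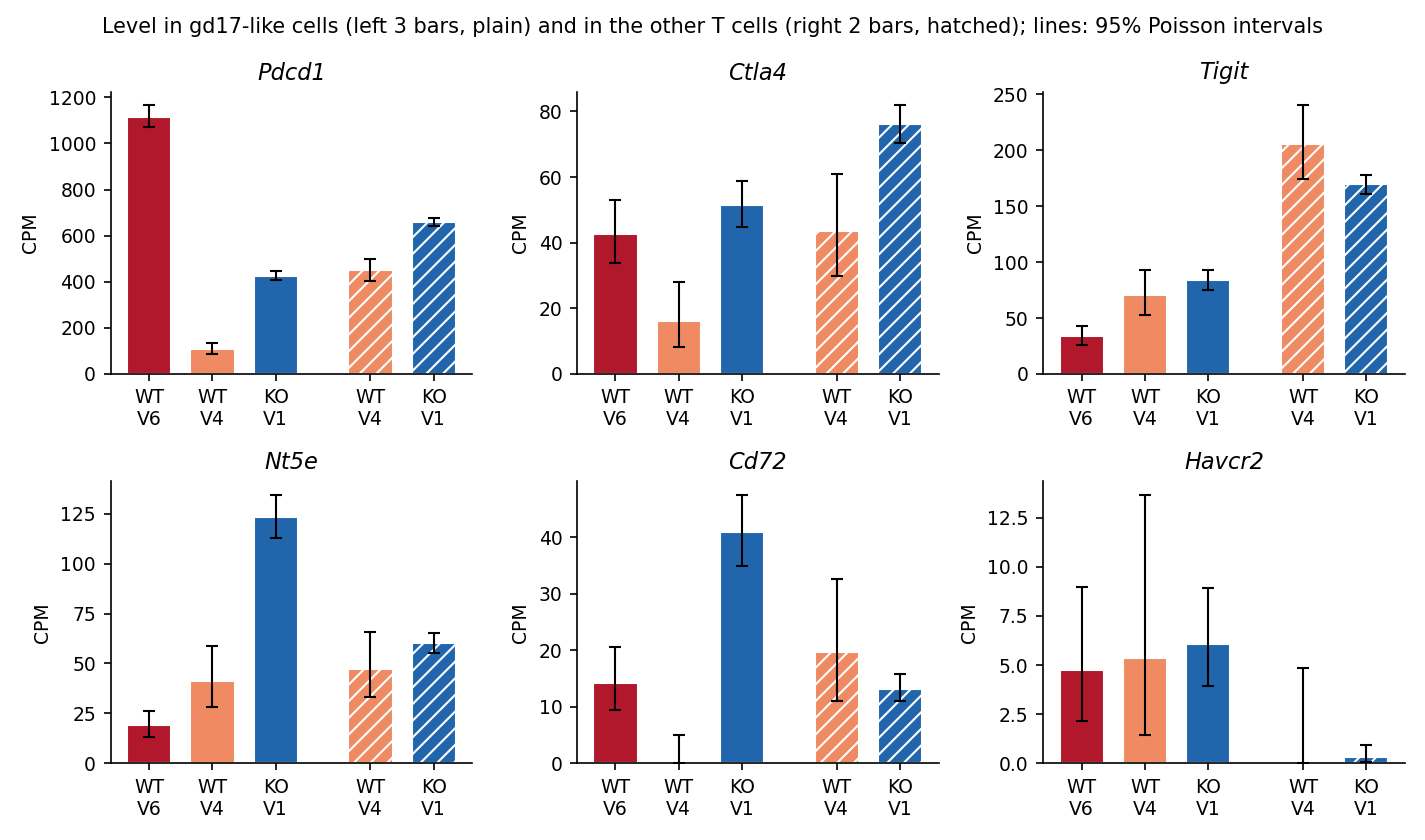
Level in CPM (y axes from 0) of 6 of the genes in γδ17-like cells of WT Vγ6, WT Vγ4 and KO Vγ1 (plain bars) and in the other T cells of WT Vγ4 and KO Vγ1 (hatched bars), with 95% Poisson intervals. Nt5e and Cd72 are highest in KO Vγ1 γδ17-like cells at 123 and 40.9 CPM, Pdcd1 in WT Vγ6 at 1116 CPM, and Tigit is higher in the hatched bars.

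Clusters that both libraries shared allowed the same reading over all cells, with or without a receptor UMI. In the γδ17-like cluster 4 (1317 KO cells and 742 WT cells, the latter with 93 Vγ6 and 213 Vγ4 cells), KO over WT gave a log2 ratio of 2.81 (2.06 to 3.67) for Cd72, 1.86 (1.51 to 2.21) for Nt5e, 1.27 (0.86 to 1.71) for Ctla4, 0.53 (0.41 to 0.66) for Pdcd1 and 0.39 (0.13 to 0.65) for Tigit. WT and KO cells were not spread alike within cluster 4. At the finer resolution of 1, which is 0.5 elsewhere, most of its WT cells lay in a cluster led by Il17f and Ccr6 (410 WT and 52 KO cells) and most of its KO cells in one led by Ccr8 and Gpr34 (98 WT and 1055 KO cells). Within the Ccr8-led cluster, KO over WT was 1.81 (0.66 to 3.28) for Cd72 and 1.45 (0.85 to 2.12) for Nt5e, whereas Ctla4 was at -0.04 (-0.58 to 0.56), Tigit at 0.11 (-0.33 to 0.59) and Pdcd1 turned to -0.43 (-0.60 to -0.26). Within the Il17f-led cluster, Pdcd1 was at 1.11 (0.58 to 1.61) and Cd72 at 3.58 (1.22 to 6.27), and the intervals of the other 3 genes included no difference. In the remaining cluster, led by Hspa1a and Hspa1b (204 WT and 208 KO cells), Pdcd1 was at -0.82 (-1.15 to -0.49) and Ctla4 at 2.72 (1.38 to 4.42). The sign for Pdcd1 and the value for Ctla4 in cluster 4 thus depended on the clustering. In cluster 1, led by Cd24a, Gria3 and Cd8b1 (2400 KO and 321 WT cells), 4 of these 5 genes were alike within counting error: Pdcd1 at -0.10 (-0.20 to 0.00), Ctla4 at 0.09 (-0.17 to 0.37), Tigit at 0.05 (-0.15 to 0.26) and Cd72 at -0.37 (-1.02 to 0.36). Nt5e there was at 0.68 (0.23 to 1.16). Cluster 1 was not followed into the finer clusters. At resolution 1, Pdcd1 was at 1176 CPM (1141 to 1212) in KO and 998 CPM (915 to 1086) in WT cells of a Kit-led cluster. In a Cd8b1-led one it was at 276 CPM (258 to 295) in KO and 319 CPM (257 to 390) in WT cells. The likeness in cluster 1 may thus depend on the clustering as well. In cluster 2, led by Klrb1c, Klra7 and Klra1, Cd72 had the opposite sign, at -1.19 (-1.89 to -0.48), and Pdcd1 was at 1.34 (1.11 to 1.57). Whether the values differ between clusters was not tested.

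Each gene had its own place among the clusters. Pdcd1 was highest in WT cluster 5, at 1249 CPM. This place was not its alone: at resolution 1, KO cells of a Kit-led cluster had 1176 CPM (1141 to 1212). WT cells of the Tns4-led cluster then had 1216 CPM (1172 to 1262), and the intervals overlapped. With another seed, KO cells of the Kit-led cluster had 970 CPM and WT cells of the Tns4-led cluster 1237 CPM. Ctla4 reached 107 CPM in KO and 99.9 CPM in WT cells of cluster 1, and 126 CPM in KO cells of cluster 6. Tigit was highest in WT cells of the Klrb1c-led cluster 2, at 256 CPM, and reached 195 CPM in KO cells of cluster 0, led by Klrd1, Ly6c2 and Ccl5. Its place changed with the clustering: at resolution 1 it was highest in WT cells of a cluster led by Kit, C1ql3 and Hist1h2ae, at 294 CPM, with 245 CPM in the Klrb1c-led one, and with another seed these were 217 and 208 CPM. Nt5e reached 289 CPM in KO cells of cluster 8, which is γδ17-like and shallow, with a median of 1227 UMIs a cell. Without clusters 6 and 8, the shallow ones, no gene's direction changed in any of the 4 comparisons.

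**Figure D4:**
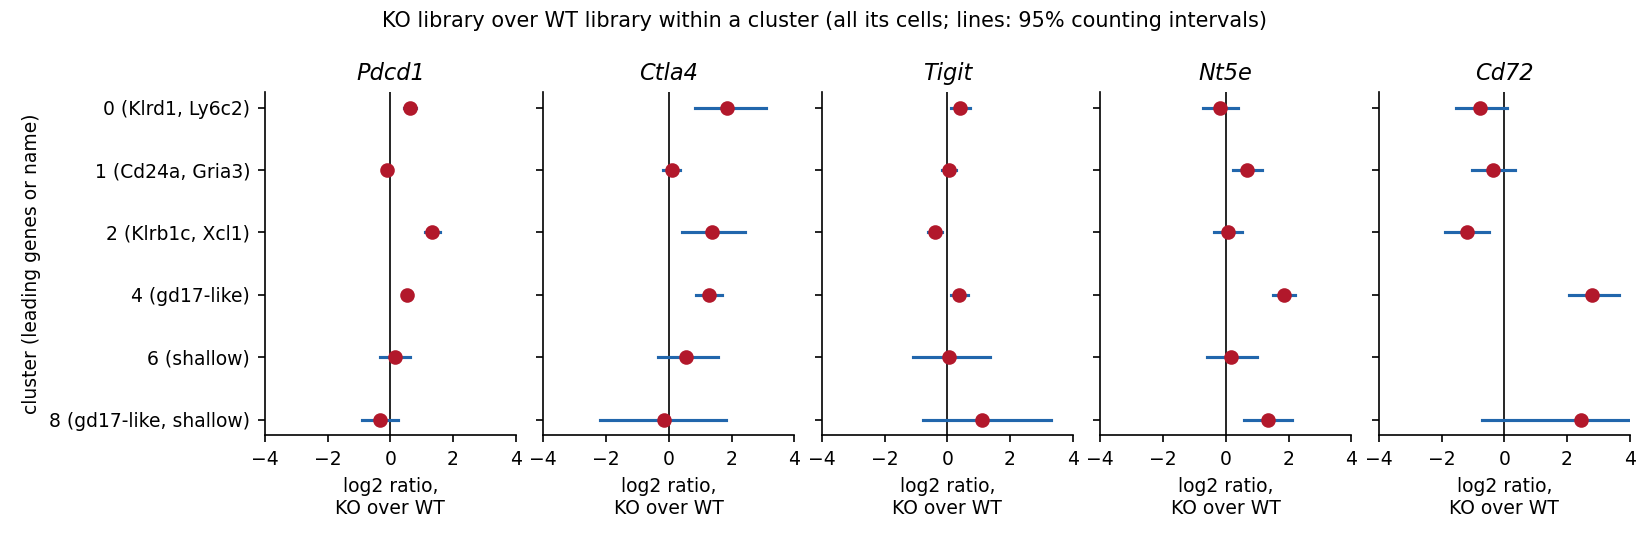
Log2 ratio of CPM (x axis), KO library over WT library, for 5 genes within each of 6 clusters (y axis), over all cells of the cluster, with 95% counting intervals as lines that stop at the edge of the axis where they run past it. Cd72 and Nt5e stand at 2.81 and 1.86 in cluster 4, while Pdcd1, Ctla4 and Tigit lie near 0 in cluster 1; Cd72 has no value in cluster 6 for lack of UMIs.

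The pattern of each gene was set beside that of 10158 genes over 16 sums of a cluster in a library, points that share the libraries, depth and much of their cell content. Pearson's r is given as a description. Tigit was most like Gimap3 (0.93), Gimap5 (0.90) and Phf13 (0.89). Ctla4 was most like Top2b (0.84), Numa1 (0.83) and Sf1 (0.82), and Nt5e was most like Plekha7 (0.89), Snrnp70 (0.89) and Gm47015 (0.89). Cd72 was most like Zfp747 (0.87) and Cgas (0.86), and Pdcd1 like Gbp6 (0.75), Gosr2 (0.75) and Sf3a3 (0.73). Entpd1 was most like Napsa (0.89), Fcgr3 (0.89) and Syk (0.87), and Btla like E430024I08Rik (0.90), Psmc3ip (0.86) and Cnr2 (0.85). Between members, the pairs at the ends were Pdcd1 with Ctla4 (0.56) and Tigit with Havcr2 (-0.78). Havcr2 had only 52 UMIs in WT and 42 in KO cells, under the minimum of 100 UMIs used for the other genes. Its level was 65.1 CPM in WT myeloid-like cells, so this r rests on sparse counts and a cluster outside the T cells. Entpd1 was at 163 CPM in those cells and at most at 15.5 CPM in a T cell cluster, so its r values rest on that point too. Ctla4 and Nt5e were highest in KO cells of the shallow clusters 6 and 8, at 126 and 289 CPM. What these points gave to their r values was not tested.

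Within KO Vγ1 cells thinned to 2000 UMIs, the genes could be read cell by cell. A Tigit UMI was found in 26.6% (24.2 to 29.1) of 1308 cells with a Pdcd1 UMI and in 18% of 1445 cells without. An Nt5e UMI was found in 19.7% (13.2 to 27.7) of 127 cells with a Cd72 UMI and in 11.6% of 2626 without. Cells with a Cd72 UMI had 1929 CPM of the 11 γδ17 marker genes, against 1148 CPM without, a log2 ratio of 0.75 (0.61 to 0.88). For Nt5e this ratio was 0.41 (0.31 to 0.50), for Pdcd1 it was -0.41 (-0.49 to -0.34) and for Tigit -0.63 (-0.73 to -0.53). In WT Vγ6 cells the sign for Pdcd1 was the other way, at 0.27 (0.17 to 0.37). Cells with a Tigit UMI had more of the 6 cytotoxic marker genes, 2549 against 1759 CPM in KO Vγ1 (log2 0.53, 0.47 to 0.60) and 3883 against 2551 CPM in WT Vγ4 cells (log2 0.61, 0.47 to 0.74). Cells with a Ctla4 UMI had more of the 5 naive-type genes, 3007 against 2301 CPM in KO Vγ1 cells (log2 0.39, 0.31 to 0.46).

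WT cells were also split by sex-linked transcripts, a split chosen after the data were seen. The 133 WT Vγ6 cells with a Y-linked UMI had 1133 CPM (1049 to 1222) of Pdcd1, and the 185 with an Xist UMI and no Y-linked UMI had 998 CPM (926 to 1074). In WT Vγ4 cells these were 315 CPM (267 to 368) and 372 CPM (320 to 429). Tigit was at 33.8 and 30.9 CPM in WT Vγ6 and at 133 and 148 CPM in WT Vγ4 cells. Both genes thus kept their order between WT Vγ6 and WT Vγ4 in cells of either kind. Y-linked UMIs were in 25.6% of WT Vγ6, 28.3% of WT Vγ4 and 0.521% of KO Vγ1 cells, so this split was not available in KO, and sex and library cannot be told apart.

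Other genes of the pathways were read from 6 lists, chosen with earlier results of these data known. Among receptors that pair or compete with the members, 4 of 7 were past 2-fold higher and 1 lower in WT Vγ6 over WT Vγ4 cells, beside 5.11% and 5.12% of all genes, with a median of 1.26 beside -0.01. Pvrig, an inhibitory relative of Tigit, was at 27.8 against 3.79 CPM, the costimulator Icos at 906 against 281 CPM, and Tnfsf14, a ligand of the Btla partner HVEM, at 26.8 against 8.84 CPM. Cd28 was the 1 lower gene, at 10.6 against 69.5 CPM. Pvrig and Tnfsf14 passed the UMI minimum mainly through WT Vγ6 cells, and Cd28 mainly through WT Vγ4 cells. Compared with WT Vγ6 cells, KO Vγ1 cells had 3 of 8 higher and 2 lower, beside 11.2% and 6.77% of all genes, with Cd28 at 152 CPM. Against WT Vγ4 cells they had 3 of 8 higher and 0 lower, beside 5.17% and 3.85%, with Icos at 648 CPM. Cd4 was among the higher genes both times only through its 48 KO UMIs, against 0 and 1.

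Among genes of adenosine and ATP handling, 0 of 9 were past 2-fold higher and 3 lower in WT Vγ6 over WT Vγ4 cells, beside 5.11% and 5.12% of all genes, with a median of 0.01. The 3 were Dpp4, the adenosine kinase gene Adk and the receptor gene Adora2a. They were at 11.1 against 75.2 CPM, 46.0 against 169 CPM and 25.8 against 59.4 CPM, in that order. KO Vγ1 cells had 6 of 13 higher and 1 lower than WT Vγ6 cells, beside 11.2% and 6.77% of all genes, led by Art2b (log2 3.94, 1.43 to 9.26), Dpp4 (3.36, 2.75 to 4.04) and Adk (2.57, 2.27 to 2.89), with Cd38 lower (-1.55, -2.57 to -0.44). Relative to WT Vγ4 cells, 4 of 13 were higher and 0 lower, beside 5.17% and 3.85%, among them Art2b (2.03), Ada (1.40, -0.01 to 3.30) and P2rx7 (1.16), the ATP receptor gene. Art2b was compared only through its 105 KO UMIs, against 1 in WT Vγ6 and 3 in WT Vγ4 cells.

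The 2 next lists have the same backgrounds: 5.11% higher and 5.12% lower of all genes in WT Vγ6 over WT Vγ4 cells, 11.2% and 6.77% in KO Vγ1 over WT Vγ6 cells, and 5.17% and 3.85% in KO Vγ1 over WT Vγ4 cells. Among 12 signal transducers, 0 were higher and 3 lower in WT Vγ6 over WT Vγ4 cells: Sh2d1a, the adaptor SAP, at -3.13, Trat1 at -2.39 and Dgka at -1.46. With KO Vγ1 set over WT Vγ6 cells, 4 of 12 were higher, led by Sh2d1a (3.95), Trat1 (3.03) and Dgka (2.06), and 0 of 12 were past 2-fold in KO Vγ1 over WT Vγ4 cells. Of 17 transcriptional regulators compared in WT Vγ6 over WT Vγ4 cells, 5 were higher, led by Prdm1 (2.90), Bhlhe40 (1.58) and Irf4 (1.26), and 3 lower, led by Id3 (-2.74), Bach2 (-1.09) and Ikzf2 (-1.09). Of 18 regulators in KO Vγ1 over WT Vγ6 cells, 4 were higher, led by Eomes (2.57, 0.67 to 5.64), Id3 (2.44) and Ikzf2 (1.46), and 6 lower, led by Prdm1 (-2.45), Bhlhe40 (-2.33) and Maf (-1.65). Against WT Vγ4 cells 0 were higher and 1, Eomes (-1.15), was lower. Eomes entered the comparison with WT Vγ6 cells through KO UMIs (81 against 2), and Prdm1 entered that of WT Vγ6 over WT Vγ4 through Vγ6 UMIs (28 against 3).

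Of the other inhibitory receptors, 1 of 11 was higher and 3 lower in WT Vγ6 over WT Vγ4 cells, beside 5.11% and 5.12% of all genes, with Cd200r1 at 1.68 and Lilrb4a at -3.36, Cd6 at -2.09 and Klrc1 at -1.41. In KO Vγ1 over WT Vγ6 cells 4 of 12 were higher and 1 lower, beside 11.2% and 6.77%. Cd6 was at 3.29, Cd5, which dampens T cell receptor signals, was at 1.60, and Cd101 was lower at -1.37. In KO Vγ1 over WT Vγ4 cells 3 of 12 were higher, among them Cd5 at 1.67 and Cd6 at 1.20, and 2 lower, Lilrb4a at -2.14 and Klrc1 at -1.42, beside 5.17% and 3.85%. Cd200 was among the higher genes both times only through its 71 KO UMIs, against 0 and 2. Of the ligands of the members, Lgals9, which binds TIM-3, was the 1 of 6 past 2-fold in WT Vγ6 over WT Vγ4 cells, lower at -1.11. Lgals9 at 1.01 and Tnfrsf14 at 1.51 were the 2 of 9 higher in KO Vγ1 over WT Vγ6 cells, and Cd86 at -1.13 was the 1 of 9 lower against WT Vγ4 cells, with the same backgrounds. Lilrb4a and Cd86 are also myeloid genes, and the 10 myeloid markers summed to 510.4 CPM in WT Vγ4, 308 CPM in WT Vγ6 and 191 CPM in KO Vγ1 cells. Without B-like and myeloid-like cells, a setting added after seeing the data, Lilrb4a stayed at -3.20 (-4.48 to -2.12) in WT Vγ6 over WT Vγ4 and at -2.08 (-2.55 to -1.59) in KO Vγ1 over WT Vγ4 cells, while Cd86 turned from -1.13 to 0.97 (-0.99 to 4.07). In the same setting Tnfrsf14 was at 1.48 (0.07 to 3.39) in KO Vγ1 over WT Vγ6 cells, with 76 against 4 UMIs. It was thus compared mainly through its KO UMIs. No gene of the 6 lists was past 2-fold in KO dv6 over KO Vγ1 cells without dv6.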

How the data were processed

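Single-cell libraries of sorted lung γδ T cells were analysed, 1 per group. The authors deposited filtered gene-by-cell matrices of UMI counts, not normalized, from Cell Ranger against mm10. The matrix header and the submitters' processing notes name version 7.0 of Cell Ranger, and the study's methods name another. The labels name a 3' protocol and the methods a 5' kit, so the end of the transcript that was read is not settled. The strand and intron settings of the counting were not found in those sources.

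Cells with over 200 and under 4000 genes and under 10% mitochondrial UMIs were kept, as in the study. UMIs were summed per group of cells and given as CPM. Ratios of sums are on the log2 scale and were counted when past 2-fold with at least 30 UMIs over both sums. No test was made, since cells are not replicates. Shares were taken after thinning cells to 2000 UMIs without replacement, which left out 380 WT and 828 KO cells. The 95% intervals cover counting error only, and a sum of 0 was set to a floor of 3 UMIs in ratios. Clusters came from scanpy 1.11.5 (2000 variable genes without the members, receptor and sex-linked genes, 30 components, 15 neighbours, Leiden resolution 0.5), and were named from marker lists. Doublets were not removed: Scrublet called 191 WT and 0 KO cells, so the caller did not work in KO, and leaving out the highest-scoring 5% of each library was an alternative.

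Genes named in the text were all 9 members, up to 3 genes per pathway list, direction and comparison with the largest ratio past 2-fold, and the 3 genes most like each member with at least 100 UMIs by Pearson's r of log2(CPM + 1) over clusters of at least 50 cells. Tesk1 was named after its values were seen. Some genes that these rules name are not reported here. The members, the lists and the groups of cells were chosen with earlier results of these data known. Gene positions are from GENCODE vM21. The ratio and its interval were tested on simulated Poisson sums. These share the assumption of the interval and hold no spread between cells, mice or libraries, so they do not show that the intervals suit these data.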

Additional observations from a re-analysis of the deposited data

Results flagged for a closer look

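Cd72 differed in opposite directions between the groups of the libraries. In WT Vγ4 cells the log2 ratio of γδ17-like over other T cells was -2.30, from 0 UMIs, set to the floor, against 15. Its interval ran up to -1.82. In KO Vγ1 cells the ratio was 1.63, from 169 against 123 UMIs. The difference between the libraries was not tested, since each had 1 library.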

How the results depend on the processing

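Of 493 log2 ratios recomputed under an alternative, 461 stayed within the interval of the reported ratio, 30 moved and 2 reversed. The 461 include 36 with a minimum of 10 UMIs and 36 with no minimum. These could not change, since the minimum only decides which genes are counted. Of 36 shares of cells with a UMI, 24 left their interval without thinning and 25 with thinning to 1000 UMIs. The highest level over clusters left its interval for 2 of the 9 genes, Tigit and Cd72, under either other clustering. For Cd72 this leaves out the small B-like clusters, where its level was highest each time. Without them its highest level was 39.9 CPM in KO cells of cluster 4, and 55.5 CPM in KO cells under either other clustering. Both reversals came with cells thinned to 2000 UMIs, in sparse genes. Btla in WT Vγ6 over WT Vγ4 cells became 0.26 only through the floor of 3 UMIs. A Btla UMI was in 0 of 483 thinned WT Vγ6 and 2 of 385 thinned WT Vγ4 cells, so the counts themselves did not reverse. Havcr2 in KO Vγ1 over WT Vγ6 cells became 0.66. A Havcr2 UMI was then in 1 of 483 WT Vγ6 and 8 of 2753 KO Vγ1 cells. The number of members past 2-fold in KO Vγ1 over WT Vγ6 cells was 6, and became 3 with thinned cells and 3 with at least 2 receptor UMIs. In KO Vγ1 over WT Vγ4 cells it was 4, and became 0 with at least 2 receptor UMIs, which left 99 WT Vγ4 cells, and 0 with that rule in WT cells alone, a setting added after seeing the data. In WT Vγ6 over WT Vγ4 cells it was 3, and became 5 with a minimum of 10 UMIs and 7 with no minimum, since more genes were then compared. In the dv6 comparison it was 0 under each alternative run. Leaving out B-like and myeloid-like clusters, or the shallow clusters 6 and 8, was added after seeing the data, and no ratio of the 9 genes changed sign or left its interval under either. The restriction to cells with a CD3 or Trdc UMI and at most 1 B cell or myeloid UMI left 321 of 520 WT Vγ6 cells, and Pdcd1 in WT Vγ6 over WT Vγ4 cells was then 2.32. No paired analysis was possible because the design holds a single library of WT and of KO. Lag3, Havcr2, Btla and Entpd1 were limited by depth.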

Other observations

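Cells in no group carried the same genes. In the 1575 such WT cells Pdcd1 was at 458 CPM, Tigit at 109 CPM, Ctla4 at 37.5 CPM, Nt5e at 36.8 CPM and Cd72 at 19.8 CPM. In the 3052 such KO cells these were 413, 148, 65.8, 53.9 and 19.6 CPM. Lag3 gave 7 UMIs and Btla 25 UMIs in the WT cells, and 16 and 54 UMIs in the KO cells.

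KO cells in cluster 2, led by Klrb1c, Klra7 and Klra1, had 15.5 CPM of Entpd1 (37 UMIs), against 5.55 CPM (6 UMIs) in WT cells of that cluster, a log2 ratio of 1.48 (0.22 to 3.01). Cells of the cycling cluster 3 had 538 CPM of Pdcd1 and 25.0 CPM of Ctla4 in KO.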
